A study of Mus musculus with 60 samples.

Results

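The genes described here are 10 secreted components of the extracellular matrix: Dpt, Dcn, Lum, Prelp, Ogn, Bgn, Postn, Efemp1, Pcolce and Pcolce2. They were taken by symbol from a table of 54352 genes, in which each of the 10 symbols named 1 row. Expression was measured by bulk 3′ RNA sequencing, in which tags near the 3′ end of each messenger RNA are counted, in subcutaneous white fat (scWAT), visceral white fat (vWAT) and triceps muscle. All mice were C57BL/6JN, 12 weeks old at collection. Each tissue was taken from the same 20 mice, in 4 groups of 5.

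The groups crossed diet with activity. Standard chow supplied 10% of its calories as fat, the high-fat diet (HFD) 60%, and each was fed for 6 weeks. Within each diet, 5 mice stayed sedentary and 5 had running wheels, used at will, over the final 3 weeks. Mice were fasted for 6 hours before collection, and wheels were locked for the last 24 hours, so the running groups were measured after a pause. The labels name no genetic change in any group. The samples are whole tissue, so fewer cells of a type and less RNA per cell cannot be told apart in any value below.

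The 10 genes fall into several kinds of matrix protein. Decorin (Dcn), biglycan (Bgn), lumican (Lum), Prelp and osteoglycin (Ogn) are small leucine-rich proteoglycans, which bind collagen fibrils and set their spacing and thickness. Dermatopontin (Dpt) binds decorin and fibronectin and promotes fibril assembly. Periostin (Postn) is a matricellular protein, a matrix protein that acts on cells more than it bears load, and Efemp1 encodes fibulin-3, a relative of elastic fibre proteins. Pcolce and Pcolce2 encode enhancers of procollagen C-proteinase, the activity that trims procollagen so that it can form fibrils. In fat these proteins are made mostly by fibroblast-like stromal cells, and the collagen-rich matrix around fat cells is known to be remodelled as fat expands.

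In mm10, Dpt lies at chr1:164796644-164824266, Dcn at chr10:97479609-97518143, Lum at chr10:97565128-97572703, Prelp at chr1:133910304-133921414 and Ogn at chr13:49608046-49624501. Bgn lies at chrX:73483602-73495933, Postn at chr3:54361109-54391037, Efemp1 at chr11:28853204-28926743, Pcolce at chr5:137605103-137613784 and Pcolce2 at chr9:95637601-95698096. Promoters are shown for 5 genes that the results turn on: Dpt, whose response to running depended on diet in vWAT; Prelp, called in both depots; Efemp1, whose diet response differed between depots; Pcolce2; and Ogn, called for neither diet nor running. Each is the 250 bases before the RefSeq transcription start on GRCm38.p6, which is the mm10 assembly, 5′ to 3′ on the strand given. RefSeq entries were matched for 8 of the 10 genes, not for Dcn and Lum. Capitals mark matches on either strand. The letters searched were TATAAA for the TATA box, TGANTCA for AP-1, CATTCC for TEAD, CCAAT for the CCAAT box and GGGCGG for the GC box.
Dpt (chr1:164796413-164796662, plus strand): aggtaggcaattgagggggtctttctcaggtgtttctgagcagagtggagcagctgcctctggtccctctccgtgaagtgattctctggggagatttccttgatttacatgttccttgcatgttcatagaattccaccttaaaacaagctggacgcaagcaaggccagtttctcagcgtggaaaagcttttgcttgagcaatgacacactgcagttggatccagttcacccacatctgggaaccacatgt
Prelp (chr1:133921402-133921651, minus strand): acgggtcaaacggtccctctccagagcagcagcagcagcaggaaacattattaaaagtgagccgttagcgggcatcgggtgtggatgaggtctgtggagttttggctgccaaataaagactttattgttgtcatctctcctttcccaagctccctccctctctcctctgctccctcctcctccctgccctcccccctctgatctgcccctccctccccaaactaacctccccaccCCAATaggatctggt
Ogn (chr13:49607765-49608014, plus strand): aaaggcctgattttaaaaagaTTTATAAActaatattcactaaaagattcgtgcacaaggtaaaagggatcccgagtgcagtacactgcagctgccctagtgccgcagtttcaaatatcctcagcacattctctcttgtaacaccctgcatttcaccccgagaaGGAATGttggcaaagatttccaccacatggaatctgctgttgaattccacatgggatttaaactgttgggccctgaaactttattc
Efemp1 (chr11:28852955-28853204, plus strand): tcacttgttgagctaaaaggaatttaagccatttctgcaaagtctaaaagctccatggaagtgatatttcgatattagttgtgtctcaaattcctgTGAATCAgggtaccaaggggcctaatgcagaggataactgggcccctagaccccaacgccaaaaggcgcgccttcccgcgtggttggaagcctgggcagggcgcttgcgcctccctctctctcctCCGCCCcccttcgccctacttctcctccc
Pcolce2 (chr9:95637378-95637627, plus strand): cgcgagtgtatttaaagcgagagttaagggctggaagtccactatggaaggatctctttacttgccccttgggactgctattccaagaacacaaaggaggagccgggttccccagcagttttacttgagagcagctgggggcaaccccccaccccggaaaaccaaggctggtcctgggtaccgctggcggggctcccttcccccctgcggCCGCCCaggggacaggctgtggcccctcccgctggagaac
In Ogn the capitals mark 2 overlapping TATA box matches on opposite strands, and 1 TEAD match. In Efemp1 they mark 1 AP-1 match and 1 GC box, in Prelp 1 CCAAT box and in Pcolce2 1 GC box. The Dpt window held none of these and 6 matches to the E-box CANNTG, which are not in capitals. Over 32851 mouse promoters of this length, the TATA box letters were present in 12.4%, those of AP-1 in 6.75%, TEAD in 12.6%, the CCAAT box in 33.8%, the GC box in 32.7% and the E-box in 66.2%. A match describes letters only and shows no factor at the site.

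Library depth was modest and even, at 505336 to 744581 estimated counts. Levels are in CPM, for which each library was scaled to sum to 1000000, with the mean ± SD where 5 mice are summarised. Fat markers were present in every fat library, with Adipoq at 2977 CPM or more in scWAT and 4594 or more in vWAT, and Ckm of muscle was at 5854 CPM or more in triceps. Some libraries also held RNA of other tissues. In scWAT, 6 libraries carried lymph node transcripts, with 247 to 640 counts over 10 B cell genes against at most 26 in the other 14. All 6 came from chow-fed mice, 3 sedentary and 3 running, so in this depot lymph node RNA moved with diet. Counts of 15 skeletal muscle genes in scWAT ran from 127 to 70001, with no HFD running library above 1393. In vWAT, 3 HFD libraries, sedentary replicate 5 and running replicates 4 and 5, held 229 to 353 counts of intestinal genes, where the remaining 17 of this depot reached 11 at most. The library codes in the column headers were grouped here into blocks of 12 consecutive codes. The headers name no blocks, so the edges of the blocks were set in the processing. These 3 HFD libraries are the only vWAT libraries of their block, so code block and foreign RNA cannot be told apart within vWAT. The 5 triceps libraries of the same block, sedentary chow replicates 1 to 3 and running chow replicates 1 and 2, held 187 to 234 counts of intestinal genes against at most 1 in the other 15. In vWAT, 5 further libraries, with those same group and replicate labels and a block of their own within vWAT, had heart gene counts of 417 to 569, and the remaining 15 had 5 to 30. All 5 were from chow-fed mice, so heart reads moved with diet in vWAT and cannot be told apart there from the code block. Calls that change without these libraries are given below, and whether the foreign RNA itself played a part was not tested. Liver gene counts in vWAT ran from 73 to 3625, highest in sedentary HFD replicate 3 and then running HFD replicate 4 (1721). On chow they reached 423 at most in vWAT. In scWAT they were at 385 to 588 in the code block of 9 libraries and 18 to 159 in that of 11. No fit was chosen to leave out libraries for liver reads, and their part was not tested.

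All 10 genes were detected in all 3 tissues, but at different levels. In sedentary chow-fed mice Dcn was at 566 ± 143 CPM in scWAT, 1315 ± 185 in vWAT and 584 ± 70 in triceps. Dpt was at 266 ± 86.7 CPM in scWAT, 189 ± 40 in vWAT and 30.4 ± 5.82 in triceps. Prelp was at 163 ± 64.8 CPM in scWAT, 286 ± 29.4 in vWAT and 22 ± 4.17 in triceps. Pcolce2 was at 7.08 ± 5.9 CPM in scWAT and 19.6 ± 6.23 in vWAT, and Postn in triceps at 4.83 ± 3.74, where a count of 0 allows up to 4.03 to 4.61 CPM. Tags were not divided by transcript length, because tags near the end of a messenger RNA do not rise in number with its length. These values are used to compare tissues within a gene and not genes with each other.

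**Figure D1:**
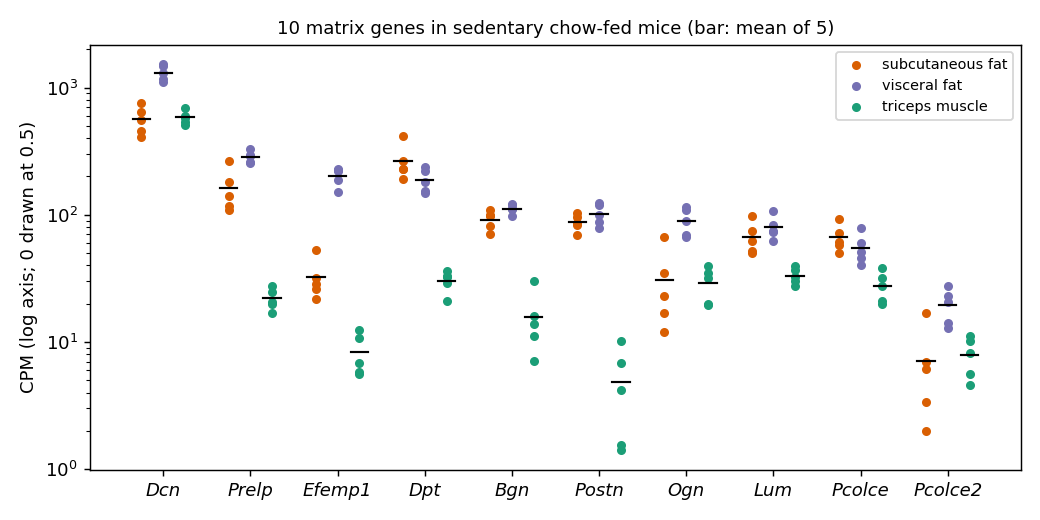
CPM (log axis) of the 10 genes in the 5 sedentary chow-fed mice in subcutaneous fat, visceral fat and triceps. Points are mice and bars are means of 5. Dcn in triceps lies near its level in subcutaneous fat, whereas Dpt, Prelp and Postn in triceps lie below every fat library of that group.

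Dpt was the 1 of the 10 genes called for a diet-by-running interaction in any tissue. In vWAT, running went with less Dpt on chow and with no fall on HFD. The sedentary chow-fed mice had 155, 221, 149, 179 and 239 CPM, and the running chow-fed mice 99.1, 121, 124, 101 and 101 CPM. Sedentary HFD mice had 169, 205, 163, 134 and 191 CPM, and running HFD mice 261, 173, 216, 245 and 262 CPM. The running chow-fed mice thus lay below every mouse of the other 3 groups, and on HFD the running mice overlapped the sedentary ones.

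Running lowered Dpt in vWAT on chow by a log2 fold change of -0.75 ± 0.15 (SE, adjusted p = 0.0105, edgeR quasi-likelihood test). On HFD the change was 0.49 ± 0.15 and was not called (adjusted p = 0.0642). The difference between both running effects, the diet-by-running interaction, was 1.24 ± 0.21 (adjusted p = 0.0116). Dpt was the only gene called for this interaction among the 6990 tested in vWAT, which is 0.0143% of them. The same estimate read the other way was a diet effect on Dpt of -0.33 ± 0.15 in sedentary mice (adjusted p = 0.197) against 0.91 ± 0.15 in running mice (adjusted p = 0.000286).

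The interaction was called in each of 20 fits that left out 1 library, at 1.14 to 1.33 with adjusted p of 0.00249 to 0.0497. It lost its call without the 3 vWAT libraries that held intestinal reads (1.15, adjusted p = 0.189), without the 5 that held heart reads (1.38, adjusted p = 0.0692), and with muscle and B cell scores as covariates (1.07, adjusted p = 0.0988). Within the 12 libraries of the block of library codes that held all 4 groups, it was 1.29 (adjusted p = 0.239), and the running effect on chow -0.89 (adjusted p = 0.164). Without the 5 heart libraries alone that running effect was also -0.89 (adjusted p = 0.169). Summed markers of mesenchymal progenitors, the stromal cells that make matrix, were at 504 to 602 CPM in sedentary and 445 to 527 CPM in running chow-fed mice. They were at 629 to 816 CPM in sedentary and 444 to 650 CPM in running HFD mice. Dlk1 of this list was at 0 in 17 of 20 vWAT libraries, and the part of these markers in the result was not tested.

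In scWAT, Dpt was high on HFD whatever the activity. The sedentary chow-fed mice had 414, 228, 229, 193 and 266 CPM and the running chow-fed mice 196, 114, 118, 84 and 148 CPM. On HFD the values were 878, 680, 553, 382 and 529 CPM in sedentary mice and 709, 766, 425, 623 and 535 CPM in running mice. The lowest HFD mouse of either activity lay above every running chow-fed mouse, and 1 sedentary chow-fed mouse, replicate 1, reached into the sedentary HFD range. The diet effect was 0.98 ± 0.24 in sedentary mice (adjusted p = 0.0135) and 1.95 ± 0.25 in running mice (adjusted p = 2.89e-05). Running on chow had a log2 fold change of -0.89 ± 0.25 in Dpt and was not called (adjusted p = 0.409, and 0.155 with the replicate number as a block). The running chow-fed mice, at 84 to 196 CPM, overlapped the sedentary ones, at 193 to 414 CPM. The scWAT interaction of 0.96 ± 0.34 was not called (adjusted p = 0.499), and 0 of 7069 genes were, against 438 at an unadjusted p under 0.05. DESeq2 called 37 genes and limma voom 0 for it, and neither called Dpt. The diet effect in sedentary mice was not called without the 6 lymph node libraries (0.65, adjusted p = 0.316), without chow-fed sedentary replicate 4 or without HFD sedentary replicate 1 (adjusted p up to 0.0555).

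In triceps, Dpt had 11 to 30 counts a library. The running HFD mice, at 19.1 to 29.6 CPM, lay below the sedentary HFD mice, at 30.5 to 41.3 CPM. Ranges separated this way in 5.85% of all triceps genes. The Dpt difference of -0.54 ± 0.23 was not called (adjusted p = 0.168), and the interaction of -0.28 ± 0.32 had an adjusted p of 0.986. Mitochondrial genes held 23.9 to 33.6% of counts in sedentary and 35.8 to 43.2% in running HFD triceps. Their part in the lower Dpt CPM was not tested. The interactions of the tissues were not tested against each other.

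**Figure D2:**
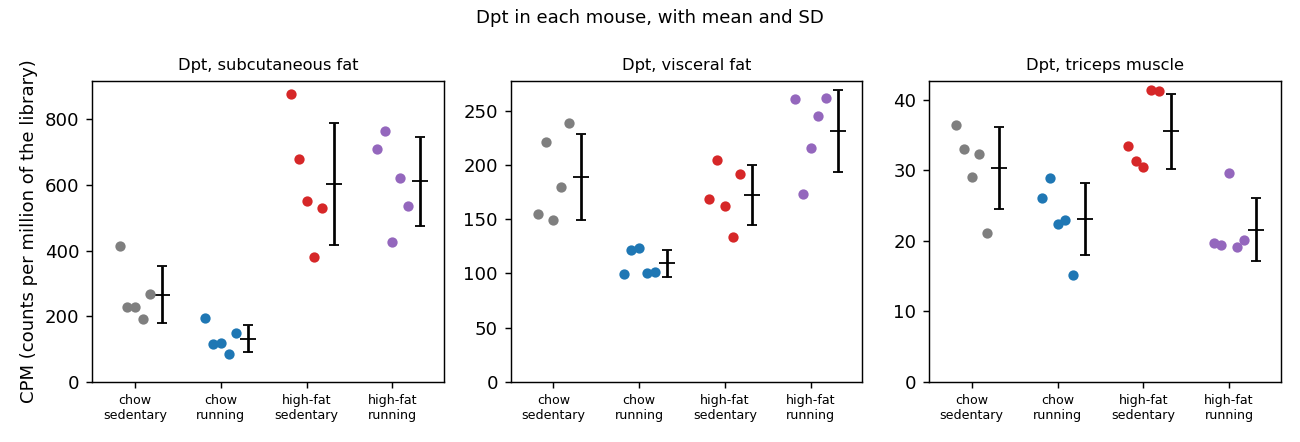
Dpt in CPM in each mouse, by tissue and group, with the group mean and SD over 5 mice beside the points. Each panel has its own axis from 0. In visceral fat the running chow-fed mice, at 99.1 to 124 CPM, lie below the other 3 groups, and in subcutaneous fat both high-fat groups lie high.

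High-fat feeding raised 6 of the 10 matrix genes in scWAT of sedentary mice and 5 in running mice. In sedentary mice all 10 had a log2 fold change above 0, with a median of 0.83 against -0.05 over all genes tested, and 6 were called higher: Dpt, Prelp, Bgn, Efemp1, Pcolce and Pcolce2. Over all genes, 3.55% were called higher, 2.8% lower and 6.35% in either direction. In running mice 5 were called higher, Dpt, Prelp, Bgn, Efemp1 and Pcolce, with a median of 1.16. There 3.15% of all genes were called higher, 2.01% lower and 5.16% in either direction. The ranges of both groups did not overlap for 5 genes in sedentary mice and 6 in running mice, against 5.57% and 8.83% of all genes in that direction.

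Among the proteoglycans of scWAT, Prelp, which anchors basement membranes to the surrounding matrix, changed most. It was at 267, 109, 180, 116 and 141 CPM in sedentary chow-fed mice and at 760, 669, 597, 501 and 959 CPM in sedentary HFD mice, with no overlap. The change was 1.88 ± 0.24 (adjusted p = 1.69e-05), and 1.71 ± 0.24 in running mice (adjusted p = 7.53e-05). Bgn, a close relative of decorin, rose from 91.3 ± 15 to 185 ± 43.3 CPM (0.83 ± 0.19, adjusted p = 0.00753).

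Dcn, Lum and Ogn were higher in the HFD means of scWAT but were not called in sedentary mice. Dcn went from 566 ± 143 to 1080 ± 306 CPM (0.72 ± 0.24, adjusted p = 0.0669), and Lum, which keeps collagen fibrils thin, from 67.3 ± 19.9 to 140 ± 47.3 CPM (0.83 ± 0.28, adjusted p = 0.0774). The Ogn change was 0.56 ± 0.34 (adjusted p = 0.358). In sedentary chow-fed mice Ogn ran from 11.9 to 66.4 CPM, so a single group spanned more than the difference between the means.

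Efemp1 and Pcolce2 had the largest log2 changes of the 10 with diet in sedentary scWAT. Efemp1 was at 52.5, 21.8, 31.9, 26 and 28.5 CPM in sedentary chow-fed mice and at 189, 226, 141, 136 and 150 CPM in sedentary HFD mice. The change of 2.17 ± 0.22 had an adjusted p of 1.46e-06, and that in running mice was 1.88 ± 0.23 (adjusted p = 1.58e-05). Pcolce2 had 11, 1, 5, 4 and 2 counts in sedentary chow-fed mice and 30, 27, 28, 37 and 76 counts in sedentary HFD mice (2.82 ± 0.47, adjusted p = 0.000724). Its paralogue Pcolce rose from 66.7 ± 16.5 to 135 ± 34.5 CPM (0.82 ± 0.2, adjusted p = 0.0126). Postn was at 87.3 ± 12.7 and 165 ± 56 CPM, with no overlap but no call (0.71 ± 0.22, adjusted p = 0.0565).

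Without the 6 lymph node libraries, only Efemp1 and Prelp of the 10 genes were called for diet in sedentary scWAT. Chow then had 2 sedentary mice. In that fit Bgn was at 0.69 (adjusted p = 0.206), Pcolce at 0.55 (adjusted p = 0.381) and Pcolce2 at 2.08 (adjusted p = 0.138). In running mice, the 5 genes called with all libraries were called without them too. Within the block of 11 libraries with consecutive codes, Dpt, Prelp, Efemp1 and Pcolce2 were called. Within the block of 9, 0 were, with Efemp1 at 2.29 (adjusted p = 0.0551), Prelp at 1.70 (adjusted p = 0.110) and Dpt at 1.2 (adjusted p = 0.268). Progenitor markers summed to 246 to 584 CPM in sedentary chow-fed scWAT and 480 to 618 CPM on HFD, with 2 of 8 tested called higher. Their part in the result was not tested.

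Few of the 10 genes were called for running in scWAT. With running on chow, the median log2 fold change of the 10 was -0.38, and 2 of the 10 were above 0. Pcolce of running chow-fed mice lay below that of sedentary ones with no overlap, as in 0.891% of all genes. On chow 0 were called by edgeR, DESeq2 or limma voom, as edgeR called 0% of all genes. At an unadjusted p under 0.05 there were 4, given without the share of all genes at that threshold. On HFD Efemp1 was called lower, where 0.297% of all genes were and 1% in either direction. It was at 189, 226, 141, 136 and 150 CPM in sedentary and 96.2, 107, 75.2, 76.8 and 97.5 CPM in running HFD mice, with no overlap (-0.85 ± 0.2, adjusted p = 0.0298). Pcolce2 was at 61 ± 33.2 and 23.7 ± 11.7 CPM (-1.31 ± 0.39, adjusted p = 0.144) and Prelp at 697 ± 175 and 435 ± 68.2 CPM (-0.63 ± 0.23, adjusted p = 0.253). Skeletal muscle genes moved with this comparison, at 342 to 44650 counts in sedentary and 190 to 1393 in running HFD libraries. With muscle and B cell scores as covariates Efemp1 and Prelp were both called. The Efemp1 call was lost in 7 of 20 fits that left out 1 library (adjusted p up to 0.13). It was at -0.92 within the block of 9 libraries and -0.79 within that of 11 (adjusted p = 0.0931), called in neither.

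**Figure D3:**
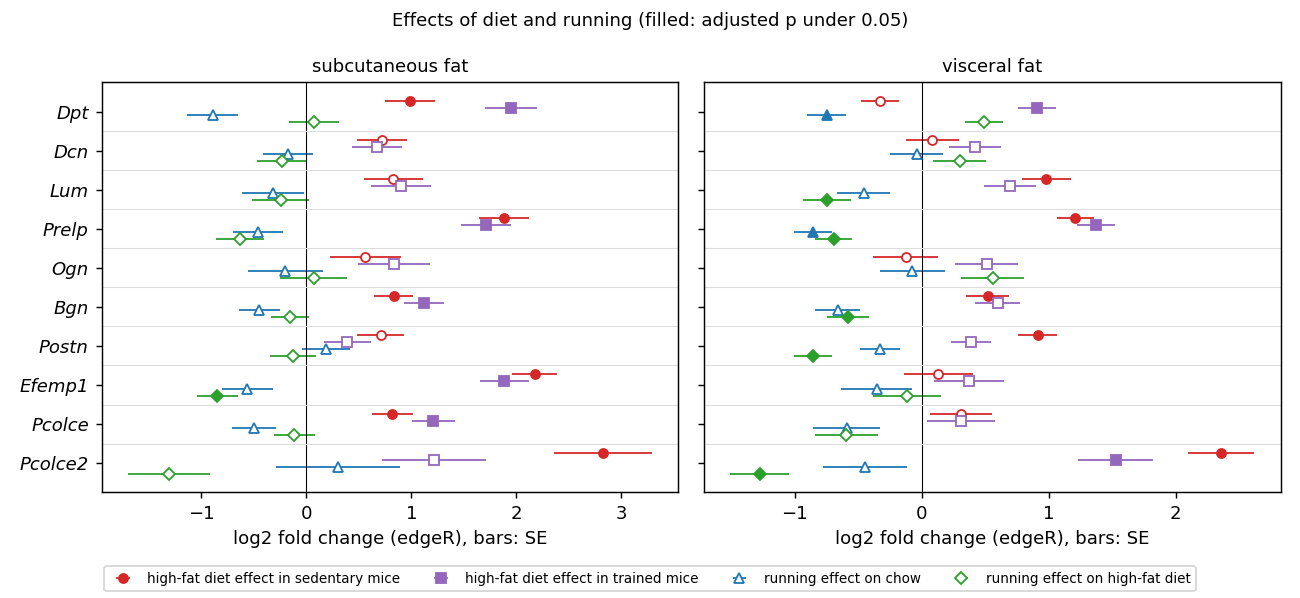
Log2 fold change (edgeR) of the 10 genes for diet in sedentary and in running mice and for running on chow and on high-fat diet, in subcutaneous and visceral fat. Bars are standard errors and filled symbols had an adjusted p under 0.05. All diet effects in subcutaneous fat lie above 0. In visceral fat the diet and running effects of Lum, Prelp, Bgn, Postn, Efemp1, Pcolce and Pcolce2 lie on opposite sides of 0.

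In vWAT, 5 of the 10 genes were called higher with diet in sedentary mice, and 5 were called lower with running on HFD. In sedentary mice Lum, Prelp, Bgn, Postn and Pcolce2 were called higher on HFD, which is 5 of 10 against 3.92% of all genes called higher, 4.15% lower and 8.07% in either direction. The median over the 10 was 0.42 against -0.01 over all genes. On HFD, those 5 genes and no other of the 10 were called lower with running. Over all genes, 1.87% were called lower there and 3.09% in either direction. The median running effect over the 10 was -0.59 on HFD, and 3 of the 10 were above 0. These contrasts share the sedentary HFD mice, so the values of each group are given side by side.

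Prelp in vWAT was at 288, 257, 261, 295 and 330 CPM in sedentary chow-fed mice and at 227, 139, 131, 110 and 162 CPM in running chow-fed mice. On HFD it was at 847, 693, 830, 633 and 795 CPM in sedentary mice and at 399, 440, 478, 392 and 548 CPM in running mice. No pair of these groups overlapped. Diet raised it by 1.21 ± 0.15 in sedentary (adjusted p = 1.54e-06) and 1.37 ± 0.15 in running mice (adjusted p = 4.24e-07). Running lowered it by -0.86 ± 0.15 on chow (adjusted p = 0.00193) and -0.69 ± 0.14 on HFD (adjusted p = 0.00521), and the interaction of 0.16 ± 0.21 had an adjusted p of 0.932. On chow, Prelp and Dpt were the 2 genes of the 10 called lower with running, where 0.315% of all genes were called lower and 0.587% in either direction.

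Postn was at 100, 119, 87.6, 78 and 124 CPM in sedentary chow-fed vWAT, and at 215, 179, 218, 223 and 263 CPM in sedentary HFD mice. Running HFD mice had 108, 158, 106, 93.9 and 117 CPM, below every sedentary HFD mouse, above every running chow-fed mouse (71.7 to 87.4 CPM) and overlapping the sedentary chow-fed mice. The diet effect was 0.91 ± 0.15 (adjusted p = 0.000149) and the running effect on HFD -0.86 ± 0.15 (adjusted p = 0.000946). Pcolce2 had 12, 14, 19, 9 and 8 counts in sedentary chow-fed mice, 66, 52, 72, 111 and 88 counts in sedentary HFD mice and 18, 52, 27, 21 and 32 counts in running HFD mice. Diet raised it by 2.36 ± 0.26 (adjusted p = 5.13e-07) and running on HFD lowered it by -1.28 ± 0.23 (adjusted p = 0.00146). The running HFD mice still held more Pcolce2 than running chow-fed mice, which had 4 to 11 counts (1.53 ± 0.3, adjusted p = 0.00184).

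Lum and Bgn moved in the same directions. Lum was at 107, 73.3, 74.5, 82.7 and 62.2 CPM in sedentary chow-fed mice, 175, 148, 132, 181 and 271 CPM in sedentary HFD mice and 85, 157, 113, 88 and 74.8 CPM in running HFD mice. Its diet effect was 0.98 ± 0.2 (adjusted p = 0.00124) and its running effect on HFD -0.75 ± 0.19 (adjusted p = 0.0242), with overlap in the second comparison. The running effect was not called in 6 of the 20 leave-one-out fits (adjusted p up to 0.143) or with the replicate number as a block (adjusted p = 0.0501). Bgn went from 112 ± 9.45 to 184 ± 35.9 CPM with diet (0.52 ± 0.17, adjusted p = 0.0475) and to 118 ± 31 CPM with running on HFD (-0.58 ± 0.17, adjusted p = 0.044). Each of these Bgn calls was lost in 13 of 20 fits that left out 1 library, with adjusted p up to 0.184 and 0.176, and the diet call with the replicate block (adjusted p = 0.0594).

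The remaining genes of vWAT were not called for diet in sedentary mice or for running on HFD. Dcn ran from 1012 to 3110 CPM among running HFD mice, the widest spread of its 4 groups. Pcolce was at 55.3 ± 15.2, 35.8 ± 10.7, 78.8 ± 15.1 and 50.2 ± 22.5 CPM in the sedentary chow, running chow, sedentary HFD and running HFD mice. Its running effect was -0.59 on either diet (adjusted p = 0.533 on chow and 0.219 on HFD). Efemp1 was at 202 ± 32.7 CPM in sedentary chow-fed and 253 ± 37.9 CPM in sedentary HFD mice (0.13 ± 0.27, adjusted p = 0.86). In running mice the genes called higher on HFD were Dpt, Prelp and Pcolce2, which is 3 of 10 against 1.2% of all genes called higher, 1.42% lower and 2.62% in either direction.

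Macrophage markers moved with both contrasts in vWAT. Their summed level was 780 to 1043 CPM in sedentary chow-fed mice, 1387 to 5917 CPM in sedentary HFD mice and 768 to 1647 CPM in running HFD mice, and 6 of 9 tested markers were called higher with diet. Summed progenitor markers, with values given above, were higher in every sedentary HFD mouse than in any sedentary chow-fed mouse. In running HFD mice they reached lower and overlapped the sedentary HFD mice. Of the 8 progenitor markers tested, 0 were called in either contrast. Without the 5 heart libraries, Prelp, Postn and Pcolce2 were called for diet in sedentary mice and for running on HFD, while Lum was at 1.15 (adjusted p = 0.0539) and -0.75 (adjusted p = 0.0534). Bgn was then at 0.44 (adjusted p = 0.411) and -0.59 (adjusted p = 0.0825). Without the 3 libraries with intestinal reads, the diet effect in sedentary mice was called for Lum, Prelp, Postn and Pcolce2 but not Bgn (0.51, adjusted p = 0.0612). In running mice Dcn, Lum, Ogn and Bgn were then called higher on HFD beside Dpt, Prelp and Pcolce2, and Bgn was called lower with running on chow (-0.66, adjusted p = 0.0437). Without those 3, running on HFD lowered Prelp and Pcolce2, while Postn was at -0.73 (adjusted p = 0.0541), Lum at -0.40 (adjusted p = 0.525) and Bgn at -0.36 (adjusted p = 0.509). Within the 12 libraries of 1 code block, Postn was at -0.73 (adjusted p = 0.0597) and Pcolce2 at -1.18 (adjusted p = 0.0833), Prelp was called lower and Ogn called higher with running on HFD (Ogn 0.92, adjusted p = 0.0493), against 0.56 ± 0.25 (adjusted p = 0.278) in all libraries. The part of these markers and libraries in the result was not tested beyond those fits.

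**Figure D4:**
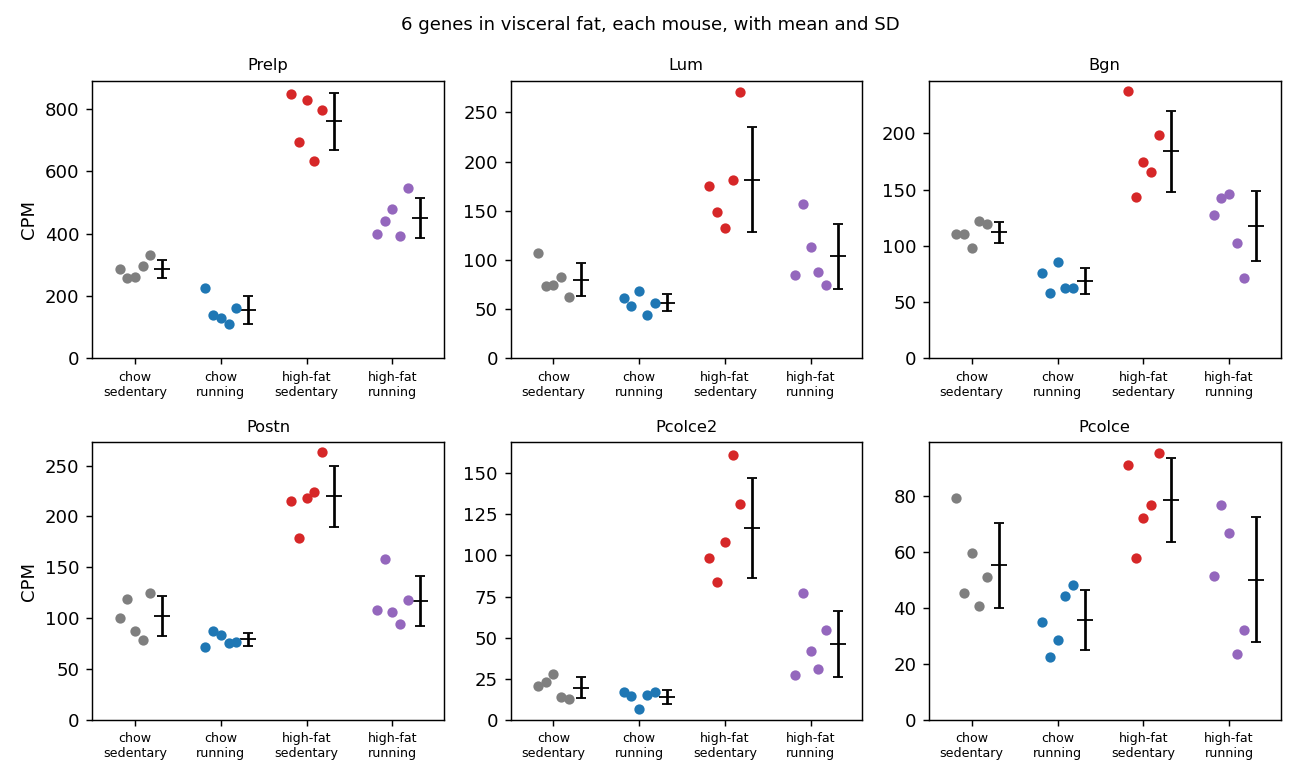
CPM of Prelp, Lum, Bgn, Postn, Pcolce2 and Pcolce in visceral fat, in each mouse, with group mean and SD over 5 mice. Axes start at 0. Sedentary high-fat mice are the highest group in each panel by mean, and for Prelp, Postn and Pcolce2 they do not overlap the running high-fat mice.

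Both depots of the same mouse were compared in a joint fit with the mouse as a block. On chow, vWAT held more of several matrix genes: Dcn, Prelp, Ogn, Efemp1 and Pcolce2 were called lower in scWAT of sedentary mice, where 6.73% of all genes were called lower, 5.33% higher and 12.1% in either direction. Efemp1 differed most, at 0.0976 to 0.236 times its vWAT level in each of 5 mice (-2.61 ± 0.24, adjusted p = 2.98e-08). Dcn was lower in scWAT of 5 of 5 mice, with a median ratio of 0.362 (-1.2 ± 0.23, adjusted p = 0.000674), and Ogn in 5 of 5, with a median ratio of 0.21 (-1.56 ± 0.31, adjusted p = 0.00153). The depot difference was -0.83 ± 0.17 for Prelp (adjusted p = 0.00102) and -1.41 ± 0.4 for Pcolce2 (adjusted p = 0.016, and 0.0584 without the mouse as a block). In running chow-fed mice Dcn, Ogn and Efemp1 were called lower, where 5.95% of all genes were called lower and 4.77% higher.

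Most of these chow calls in sedentary mice were lost without the 6 mice whose scWAT held lymph node reads. Without them, which leaves 2 per chow group, Efemp1 was called lower in scWAT of sedentary mice and Dpt higher (1.1, adjusted p = 0.0256). Dcn was then at -0.61 (adjusted p = 0.508), Ogn at -0.40 (adjusted p = 0.624), Prelp at -0.24 (adjusted p = 0.64) and Pcolce2 at -0.98 (adjusted p = 0.413). In running mice Efemp1 and Ogn were called without them, and Dcn was at -1.25 (adjusted p = 0.122). Without the 5 mice with heart reads in vWAT, Pcolce2 in sedentary mice was the 1 chow call lost (-1.39, adjusted p = 0.263).

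On HFD, Dpt and Pcolce were called higher in scWAT than in vWAT. Dpt was 2.76 to 5.2 times as high in scWAT as in vWAT in all 5 sedentary HFD mice (1.83 ± 0.2, adjusted p = 1.46e-06) and 1.97 to 4.42 times in all 5 running HFD mice (1.44 ± 0.2, adjusted p = 1.3e-05). In sedentary chow-fed mice its depot difference was 0.51 ± 0.2 (adjusted p = 0.0948). Pcolce was also higher in scWAT of HFD mice, by 0.83 ± 0.19 in sedentary (adjusted p = 0.00707) and 1.37 ± 0.2 in running mice (adjusted p = 3.54e-05). In sedentary HFD mice 3 of the 10 were called, Dpt, Pcolce and Pcolce2, where 5.51% of all genes were. In running HFD mice 6 were called against 6.34%, Dpt and Pcolce higher and Dcn, Ogn, Efemp1 and Pcolce2 lower in scWAT. The Pcolce2 difference on HFD was not called without the mouse as a block (adjusted p = 0.0868 in sedentary and 0.147 in running mice). In running mice it was also lost without the 6 mice with lymph node reads (-0.91, adjusted p = 0.0521) and the 3 with intestinal reads (-0.85, adjusted p = 0.238). Ogn in sedentary HFD mice, at -0.76 (adjusted p = 0.138), was called lower without the 6 (adjusted p = 0.023) and without the 5 mice with heart reads (adjusted p = 0.0176).

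The diet effect itself differed between depots for Dpt and Efemp1 in sedentary mice, where 1.61% of all genes were called. Efemp1 changed by 2.17 in scWAT and by 0.13 in vWAT in the fits given above, and in the joint fit the difference between these effects was 2.07 ± 0.32 (adjusted p = 0.00111). For Dpt it was 1.33 ± 0.28 (adjusted p = 0.00943, and 0.057 without chow sedentary replicate 2). In running mice Efemp1 was called, at 1.6 ± 0.34 (adjusted p = 0.0221), where 0.542% of all genes were. This call was lost without the mouse as a block (1.54, adjusted p = 0.0646) and in 6 of 20 fits that left out 1 mouse (adjusted p up to 0.109). Without the 6 mice with lymph node reads, 0 of the 10 genes were called for a depot difference in the diet effect. The differences were then 1.54 for Efemp1 (adjusted p = 0.422) and 0.74 for Dpt (adjusted p = 0.699) in sedentary mice, and 1.29 for Efemp1 in running mice (adjusted p = 0.48). The Efemp1 call in running mice was also lost without the 3 mice with intestinal reads (1.31, adjusted p = 0.158) and the 5 with heart reads (1.54, adjusted p = 0.071). Without those 5, Ogn (1.67, adjusted p = 0.0247) and Prelp (1.15, adjusted p = 0.0136) were called in sedentary mice and Dpt (1.22, adjusted p = 0.0179) in running mice. Running effects differed between depots for 0 of the 10 genes on either diet by edgeR, DESeq2 or limma voom, and 1 on each diet, Postn, had an unadjusted p under 0.05. Over all 7931 genes tested, edgeR also called 0 on either diet, so this count cannot compare the 10 with the rest. The unadjusted count is given without the share of all genes at that threshold. Mesothelial genes, which mark the lining of visceral fat, were at 2.92 to 218 CPM in vWAT and at most 14.6 CPM in scWAT, and their part in the depot differences was not tested.

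**Figure D5:**
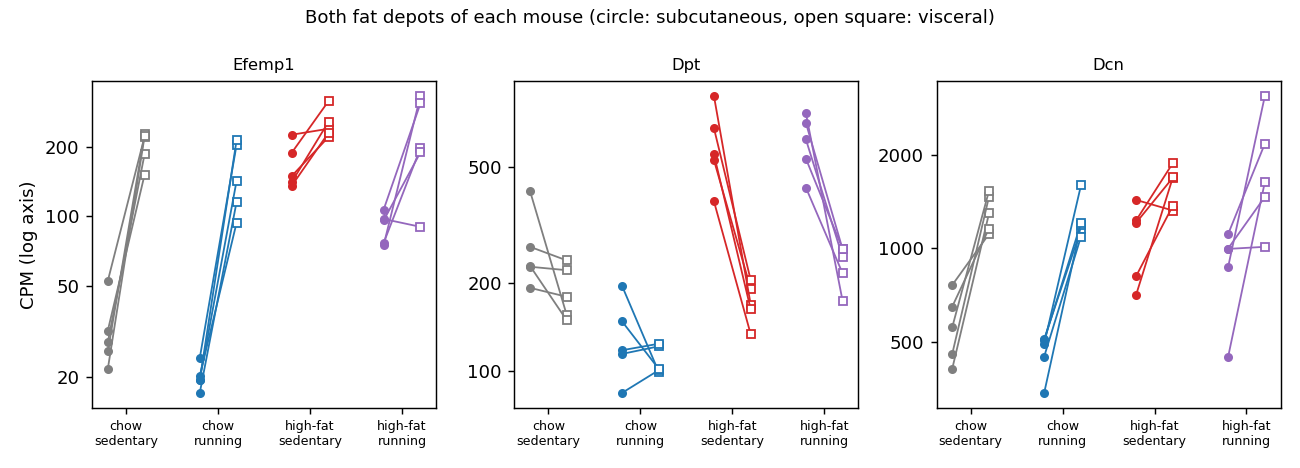
CPM (log axis) of Efemp1, Dpt and Dcn in both fat depots of each mouse, with a line joining the depots of 1 mouse. Filled circles are subcutaneous and open squares visceral fat. Efemp1 in subcutaneous fat lies far below visceral fat on chow and nearer to it on high-fat diet, and Dpt separates the depots in both high-fat groups.

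In triceps, Postn, Efemp1 and Pcolce2 were below the expression filter, with at most 7, 10 and 11 counts in a library, and 7 genes were tested. None of the 7 was called for diet, running or their interaction by edgeR, DESeq2 or limma voom. At an unadjusted p under 0.05 there were 1 for diet in sedentary mice, 2 for diet in running mice, 1 for running on chow, 3 for running on HFD and 3 for the interaction. These counts are given without the share of all triceps genes at that threshold, so they do not set the 7 apart from others. Running on HFD was called for 5.35% of all triceps genes, 3.33% higher and 2.02% lower, and running on chow for 0.748%, with 0.454% higher. Over all 4410 triceps genes tested, edgeR called 0 for diet in sedentary mice, 0 for diet in running mice and 0 for the interaction. Prelp had 17, 20, 15, 13 and 12 counts in sedentary and 11, 10, 9, 7 and 4 counts in running chow-fed mice, with no overlap (-0.82 ± 0.29, adjusted p = 0.19). In CPM, 3.67% of all triceps genes lay lower without overlap in that comparison. On HFD the Prelp difference with running was 0.67 ± 0.30 (adjusted p = 0.192), and its interaction 1.5 ± 0.42 (unadjusted p = 0.000821, adjusted p = 0.964, edgeR). Without the 5 triceps libraries with intestinal reads, 0 of the 7 genes were called in any contrast. Tendon genes, which include the proteoglycan Fmod, moved with this, at 79.9 to 185 CPM in sedentary and 27.6 to 120 CPM in running chow-fed mice. Their part in the result was not tested.

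Other genes of matrix assembly were taken from 8 lists, and up to 3 called genes of each are named. In scWAT, diet in sedentary mice raised 6 of 11 tested matricellular genes, with Thbs1, a thrombospondin that activates TGF-beta, at 2.67 ± 0.32 (adjusted p = 9.41e-06), Ccn1 at 2.13 ± 0.34 and Fn1, fibronectin, at 2.07 ± 0.43. It raised 4 of 12 matrix-degrading enzymes and inhibitors, among them Adamts5, which cleaves proteoglycans, at 1.91 ± 0.34 (adjusted p = 0.00207) and Mmp3 at 1.67 ± 0.33 (adjusted p = 0.00291). Of 9 collagens, Col5a2 and Col6a1 rose, and of 9 elastic fibre genes Fbln2 and Mfap2. In the list of collagen processing, 1 of 17 rose, Adamts2, which trims the other end of procollagen (1.04 ± 0.3, adjusted p = 0.0408). Aspn was the 1 of 5 tested other proteoglycans that rose (1.13 ± 0.27, adjusted p = 0.0122). No gene of glycosaminoglycan chain synthesis (0 of 6) or of TGF-beta ligands and receptors (0 of 3) was called, with 2 and 0 at an unadjusted p under 0.05. The unadjusted counts are given without the share of all genes at that threshold. No gene of the 8 lists was called lower in this comparison.

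In vWAT, diet in sedentary mice raised 4 of 10 collagens, with Col6a1 at 1.11 ± 0.19 (adjusted p = 0.000172) and Col3a1 at 0.64 ± 0.13 (adjusted p = 0.00146), and 4 of 12 matricellular genes. It raised 2 of 17 genes of collagen processing, Adamts2 and the prolyl hydroxylase P4ha2. Running on HFD lowered 2 of 10 collagens, Col3a1 by -0.74 ± 0.13 (adjusted p = 0.000946) and Col6a2 by -0.87 ± 0.19 (adjusted p = 0.00711). It lowered 3 of 12 matricellular genes, with Thbs1 at -2.09 ± 0.22 (adjusted p = 8.58e-07), Sparc at -0.69 ± 0.12 and Ccn1 at -0.99 ± 0.27. Loxl2, which cross-links collagen, was the 1 of 17 processing genes that fell (-1.04 ± 0.24, adjusted p = 0.0136), and Fbln2 and Ctsk were the other genes lowered. The median over the 10 collagens was -0.47 against 0.02 over all genes. On chow, running lowered Thbs1, Sparc and Fn1 of the matricellular genes, and Adamts5 (-1.12 ± 0.17, adjusted p = 0.000244).

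In triceps, the listed genes that were called rose with running: Sparcl1 on both diets (0.73 ± 0.15 on chow, adjusted p = 0.00639, and 0.98 ± 0.14 on HFD, adjusted p = 9.64e-05) and the proteoglycan Aspn on HFD (1.22 ± 0.31, adjusted p = 0.0132). None of the 7 tested collagens was called in triceps.

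Across the 20 libraries of a tissue, the 10 genes ran together most in scWAT. The median Pearson correlation of log2 CPM over 45 pairs was 0.76 in scWAT, with Efemp1 and Prelp highest at 0.97, and 0.42 in vWAT, with Pcolce2 and Postn highest at 0.86. After group means were removed these medians were 0.48 and 0.21. In triceps the median over 21 pairs was 0.20. The libraries share diet, running and depth, so these values describe the data set and are given with no test.

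The genes most like Dpt over 20 libraries were, in scWAT, Sncg (r = 0.95), Emp1 (0.94), Ehd2 (0.93), Rarres2 (0.92) and Glb1l2 (0.91) of 7069 genes, with Efemp1 at rank 12. In vWAT they were Gm4876 (0.84), Slc5a3 (0.77), Ctdspl2 (0.76), Tcf12 (0.74) and Top2b (0.71) of 6990, and Prelp, the nearest of the other 9 genes, was at rank 308 (0.42). In triceps they were Ifi27l2a (0.79), Rrm1 (0.75), Ctsz (0.73), Retn (0.73) and Rpl11 (0.72) of 4410. After group means were removed, 7 of the 9 correlations of Dpt with the other genes were below 0 in vWAT, and 1 of 9 in scWAT.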

How the data were processed

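RNA of 60 tissue samples from 20 mice was profiled by 3′ digital gene expression sequencing. The authors deposited estimated counts per gene, whole numbers in the file, made with Salmon 0.14.2 on mm10 per the submitters' processing notes. The deposited log2 columns turn back to CPM that sum to 1000000 and were used only for that check. Whether molecular identifiers or strand were used is not given in the sources used here. Members and gene lists were chosen with earlier results of these data known. Genes were named by rule: all 10, up to 3 called genes a list with the lowest adjusted p, and the 5 genes most correlated with Dpt.

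Each tissue was fitted with edgeR 4.0.16 (R 4.3.3; TMM, filterByExpr, robust quasi-likelihood test, two-sided), with 7069 scWAT, 6990 vWAT and 4410 triceps genes passing the filter. SE is the log2 fold change over the square root of F. Adjusted p is Benjamini-Hochberg over all genes of a contrast, called under 0.05. Depots were fitted jointly with the mouse, known from codes in the titles, as a block. Deviations of both depots of a mouse correlated at -0.24 to 0.22. In scWAT on chow, same-numbered sedentary and running mice correlated at 0.13 to 0.56 in all 5 pairs. The lymph node libraries were replicates 2, 4 and 5 in both of these groups. Medians over 5 such pairs ran from -0.078 to 0.059 in triceps and from -0.026 to 0.21 in vWAT. The labels do not say that numbers pair mice. Fits within tissues had no replicate block, and the blocked value is given where it changes a call. DESeq2 1.42.0, limma 3.58.1, other scalings and filters, and fits without libraries were alternatives. TMM against total counts moved contrasts by -0.27 to 0.19 (log2). The code was tested on simulated data. Figures used Python 3.11.15 with matplotlib 3.10.9. Floors cover counting error only, while SD and SE also hold the spread between mice.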

Additional observations from a re-analysis of the deposited data

Results flagged for a closer look

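In 120 groups of 5 mice, 5 held a mouse far from the other 4, where chance gives about 1 in 20. Dpt in triceps of running HFD mice was at 29.6 CPM (20 counts) in replicate 3 and 19.1 to 20.1 CPM in the others. Dcn in vWAT of running chow-fed mice was at 1598 CPM in replicate 1 and 1091 to 1205 CPM in the others. Ogn in scWAT of running chow-fed mice was at 17.9 CPM (11 counts) in replicate 5 and 25.7 to 27.6 CPM in the others. Pcolce2 in scWAT of sedentary HFD mice was at 119 CPM in replicate 5 and 38.2 to 59.8 CPM in the others. Pcolce2 in vWAT of running chow-fed mice was at 6.69 CPM (4 counts) in replicate 3 and 14.6 to 17.2 CPM in the others.

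Effects under the same contrast differed between groups in 4 results. The running effect on Dpt in vWAT differed between diets by 1.24 (edgeR, adjusted p = 0.0116). The diet effect in sedentary mice differed between depots by 1.33 for Dpt (adjusted p = 0.00943) and by 2.07 for Efemp1 (adjusted p = 0.00111), and in running mice by 1.60 for Efemp1 (adjusted p = 0.0221). None of these 3 depot results was called without the 6 mice with lymph node reads.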

How the results depend on the processing

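None of 2160 values of the 10 genes under other settings reversed a called direction. This could be seen only where the reported or the other fit called the gene, so it says nothing of the rest. Of 48 called values, 36 were called in every fit that left out 1 library. The cause of the changes below was not tested, and fits within a code block or without libraries have fewer samples. The counts below are given without the share of all genes called under the same setting, so they do not set these genes apart from others. Going from total counts to TMM moved the log2 fold changes for diet in scWAT by -0.19 in sedentary and -0.27 in running mice, for all genes alike. The Dpt interaction in vWAT was 1.07 with muscle and B cell scores, 1.29 within 12 libraries of 1 code block, 1.15 without the 3 libraries with intestinal reads and 1.38 without the 5 with heart reads, called in none of these. The number of the 10 genes called for diet in sedentary scWAT, 6, became 9 with total counts, no filter or the code block as a factor, 8 with DESeq2, 0 within 9 libraries of 1 code block and 2 without the lymph node libraries. For diet in running mice, 5 in scWAT became 9 with total counts, 9 with no filter and 0 within 9 libraries, and 3 in vWAT became 6 with total counts, 6 within 12 libraries and 7 without the 3 libraries. For running on chow, 0 in scWAT became 1 with no filter, and 2 in vWAT became 1 within 12 libraries or without the 5 heart libraries. For diet in sedentary vWAT, 5 became 3 without those 5. For running on HFD, 1 in scWAT became 2 with no filter, limma voom or covariates and 0 within 9 or 11 libraries. For running on HFD, 5 in vWAT became 3 with covariates or without the 5 heart libraries, 2 within 12 libraries and 2 without the 3 libraries, and 0 in triceps became 1 with total counts (Dpt, -0.73). Fits that left out 1 replicate gave 3 to 5 for diet in running vWAT, 0 to 1 for running on HFD in scWAT, 3 to 6 in vWAT, and for the depot difference in the diet effect 1 to 3 in sedentary and 0 to 2 in running mice. Without the 6 mice with lymph node reads, 5 depot differences in sedentary chow-fed mice became 2, and the 2 in the diet effect of sedentary mice became 0. Without the 5 mice with heart reads the latter became 4. In running mice, 1 became 0 without the lymph node or the intestinal mice. Fits without libraries or mice with foreign reads, other than those without the 6 libraries in scWAT alone, and those within code blocks were chosen after seeing the data. With the replicate number as a block, the interaction of Dpt in vWAT was 1.24 (adjusted p = 0.029), Dcn in scWAT was called for diet (0.73, adjusted p = 0.0281), Bgn (0.51, diet) and Lum (-0.75, running on HFD) in vWAT were not, and no other call of these genes changed within tissues. Depth limited Pcolce2 in chow-fed scWAT, with 1 to 11 counts, and Postn, Efemp1 and Pcolce2 in triceps.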
